A study of Drosophila melanogaster
Mus musculus with 21 samples.

Results

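The change in nuclear RNA between 2 and 4 h of auxin was described in mouse embryonic stem cells of the PRC1deg line. The members are the 6 libraries of 2 groups, PRC1deg after 4 h and PRC1deg after 2 h of 500 µM auxin, among 21 libraries of 7 groups in the series. Each group had 3 biological replicates. Both groups, and the untreated PRC1deg cells they were each set against, carried the genotype E14 Rosa26::Tir1; Ring1A-/-; AID-Ring1B. All of them therefore lacked RING1A, and all made the plant receptor TIR1, which lets auxin direct the AID-tagged RING1B to the proteasome. The untreated cells are thus a Ring1A-/- background and not wild type. Drosophila SG4 cells were mixed in before nuclei were isolated, as a spike-in.

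RING1A and RING1B are the catalytic subunits of Polycomb repressive complex 1 (PRC1), which places ubiquitin on histone H2A. In embryonic stem cells the complex lies at CpG islands of developmental genes and holds many of them at a low level. Nuclear RNA holds unfinished and unspliced transcripts beside spliced ones, so that introns contribute reads, and the lengths used here are gene-body lengths with introns as the tables give them.

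For each entry (a gene or a transcript variant of it) the log2 fold change against untreated cells at 4 h, less that at 2 h, was taken from the authors' deposited tables. Entries needed 50 or more normalised reads in untreated cells, worked out from the deposited mean level and the length, and 13499 of 20633 entries met this (12541 of 19397 symbols). Another 6458 entries had fewer reads and 676 had no fold change. None of these entered a centred difference, count or median below, unless another minimum or all entries are named. At the edge, Tnfsf9, Cdsn and Cnih2 with 50.1 reads were kept, while Oprd1, Pdzrn4 and Pih1d2 with 50.0 reads were not. The untreated level summed to 30450536 normalised reads, with a median of 878 reads per entry used. The depth of single libraries is unknown, and no standard error or value per library was at hand. The difference between 4 h and 2 h therefore has no test of its own. It is read beside the authors' separate DESeq2 tests of each time against the same untreated libraries, and a call at 1 time and not at the other does not test the difference between times.

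Most nuclear RNAs had a higher fold change at 4 h than at 2 h. The median log2 fold change was 0.40 at 4 h against 0.15 at 2 h in the authors' deposited tables, and 88.5% of entries had the higher value at 4 h. The median of the difference was 0.25, a fold of 1.19. The authors label these fold changes as spike-normalised, and this general shift rests on that scaling. All differences below are given less this median and called centred differences. A centred difference of 0 thus marks an entry that moved with the bulk of the RNAs, and one just below 0 can still be a higher level at 4 h. The interquartile range was -0.14 to 0.12, and 1% lay above 0.87 and 1% below -0.48.

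The spread was lopsided towards higher values at 4 h. Over 1.5-fold above the median difference were 333 entries (2.47%), and over 1.5-fold below it were 47 (0.348%). With 1 entry per symbol, the one with the most reads, the counts were 285 (2.27%) and 38 (0.303%). By the authors' tests (adjusted p under 0.05 and a fold change over 1.5), 1995 entries (14.8%) were called higher at 4 h and 562 (4.16%) at 2 h. Called lower were 19 entries (0.141%) at 4 h and 42 (0.311%) at 2 h. These calls use fold changes that are not centred. With centred ones, the calls of higher in all 20633 entries went from 2841 to 1731 at 4 h and from 1044 to 1027 at 2 h. Of the 333 entries far above the median difference, 327 were called higher at 4 h and 146 of these also at 2 h. Entries picked for a high 4 h value relative to 2 h tend to be called at 4 h by that choice alone. Both tails were fuller where reads were few. The share above ran from 8.23% of entries with 50 to 100 untreated reads to 0 of the 1611 entries with 5000 or more, and the share below from 1.44% to 0.

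The 15 called genes furthest above the median difference were between 273 and 1104 kb long. Fat3, an atypical cadherin, stood at a log2 fold change of 2.88 at 4 h against 0.13 at 2 h in the authors' deposited tables. It was called higher at 4 h only, and its centred difference of 2.49 is a fold of 5.63. Cacna1c, the pore-forming subunit of an L-type calcium channel, had 3.77 at 4 h against 1.44 at 2 h in the authors' deposited tables, both called higher. Fam155a, a subunit of the sodium leak channel complex, had 2.75 and 0.49 at the same times in the authors' deposited tables, of which the 4 h value was called. These genes are 468, 609 and 565 kb long, and each had between 120 and 271 untreated reads.

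Transcription factors and a ligand with its receptor followed. Npas3, a neuronal bHLH-PAS factor, had log2 fold changes of 3.87 at 4 h and 1.80 at 2 h, and Nfia, of the nuclear factor I family, 4.06 and 2.05 in the authors' deposited tables. The receptor tyrosine kinase gene Erbb4 had 3.06 and 1.17, and Nrg3, which encodes one of its neuregulin ligands, 3.22 and 1.27 in the authors' deposited tables. All 4 were called higher at both times. The orphan nuclear receptor gene Esrrg stood at 2.13 and 0.23 and was called at 4 h, while the zinc finger factor gene Mecom stood at 3.46 and 1.60 and was called at both times in the authors' deposited tables.

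Synaptic and channel genes were also in this group of 15. The BK potassium channel gene Kcnma1 had 2.20 at 4 h against 0.36 at 2 h in the authors' deposited tables and was called at 4 h only. Shisa6, an auxiliary subunit of AMPA receptors, stood at 4.73 at 4 h, and already at 2.80 at 2 h, in the authors' deposited tables. Kirrel3 (1.71), the GTPase-activating protein gene Arhgap6 (1.58) and the calcium channel subunit Cacnb2 (1.55) belonged to the 15 with these centred differences. The highest entry without a symbol, 114 kb long, had a centred difference of 2.46 and a log2 fold change of 2.90 at 4 h against 0.18 at 2 h in the authors' deposited tables.

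**Figure D1:**
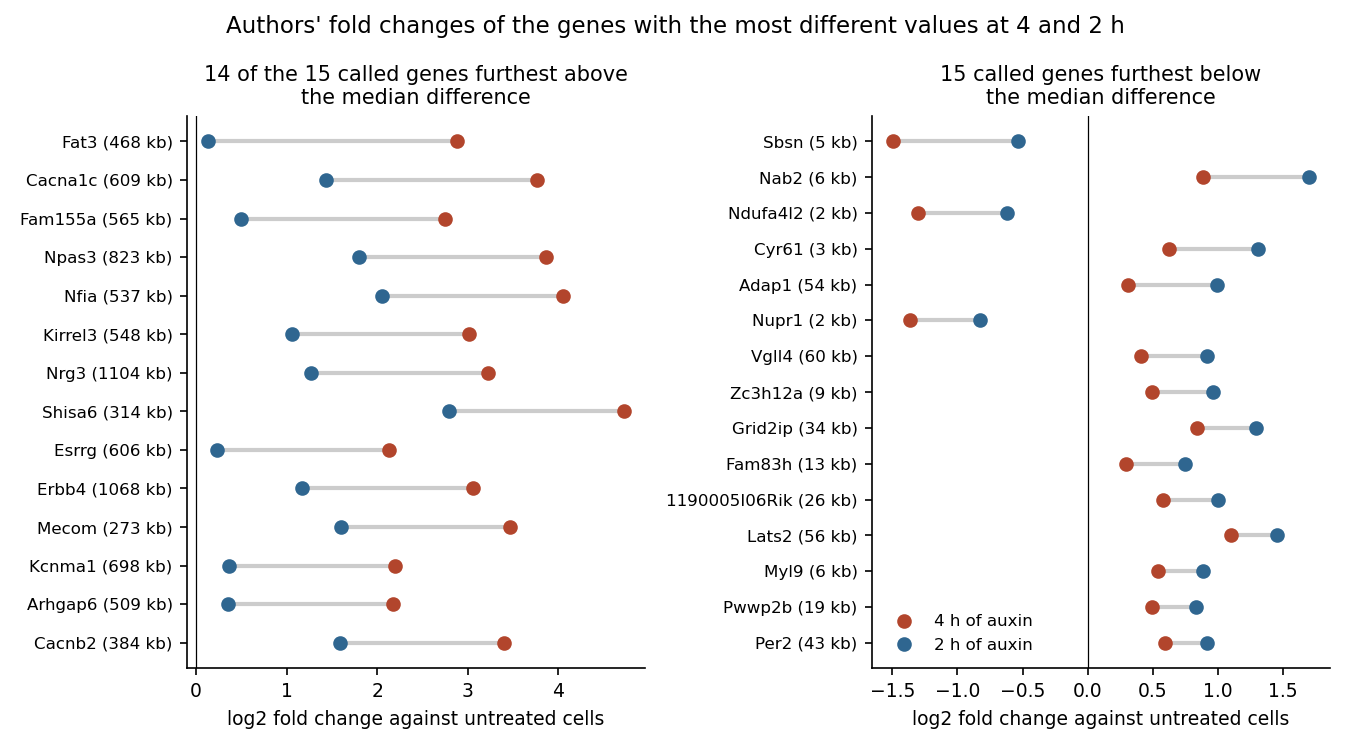
Log2 fold changes against untreated cells (x axis) at 4 h (red) and 2 h (blue) of auxin in the authors' deposited tables, with gene length, for 14 of the 15 called genes furthest above (left) and the 15 furthest below (right) the median difference; single points have no error because none was at hand. Fat3 stands at 2.88 at 4 h and 0.13 at 2 h, and Cyr61 at 0.63 at 4 h and 1.31 at 2 h.

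The centred difference went with gene length. Of the 333 entries over 1.5-fold above the median difference, 229 (68.8%) were 100 kb or longer, against 15.7% of all entries used. Their median length was 222 kb, that of all entries 26.8 kb. Over 500 kb, 34.1% of 182 entries were over 1.5-fold above, from 200 to 500 kb 17.0% of 672, from 100 to 200 kb 4.20% of 1261, and from 10 to 30 kb 0.386% of 4408. Entries under 10 kb had 0.975% of 2871 above. The class medians were -0.08 under 10 kb, -0.02 from 10 to 30 kb, 0.02 from 30 to 100 kb, 0.04 from 100 to 200 kb, 0.13 from 200 to 500 kb and 0.27 over 500 kb. Without centring, all 6 class medians lay above 0, since 0.25 is added to each.

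The gradient was steeper among entries called higher at 24 h than among the rest. The calls at 24 h, which use no library of either group, put 1226 entries (9.08%) higher, and this split was chosen after values were seen. Among these the median centred difference was 0.04 under 10 kb, 0.09 from 10 to 30 kb, 0.21 from 30 to 100 kb and 0.41 from 100 to 200 kb. It was 0.71 from 200 to 500 kb and 0.99 over 500 kb, where 54 of 69 entries were over 1.5-fold above and 68 of 69 above 0. Among entries not called at 24 h the median was -0.09 under 10 kb and 0.08 over 500 kb. The minimum in reads per entry asks for a higher level per kb from short entries than from long ones. Nrg3, 1104 kb long, passed with 0.058 untreated reads per kb, and Fam84b, 6.09 kb long, with 9.88. Short genes of low level are thus left out more often than long ones, which a split by reads does not address. Gene length and read number are linked, so the classes were also split by reads. With 500 or more untreated reads 22.0% of 100 entries over 500 kb and 0.168% of 1193 entries under 10 kb were over 1.5-fold above. With fewer reads these shares were 48.8% of 82 and 1.55% of 1678.

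**Figure D2:**
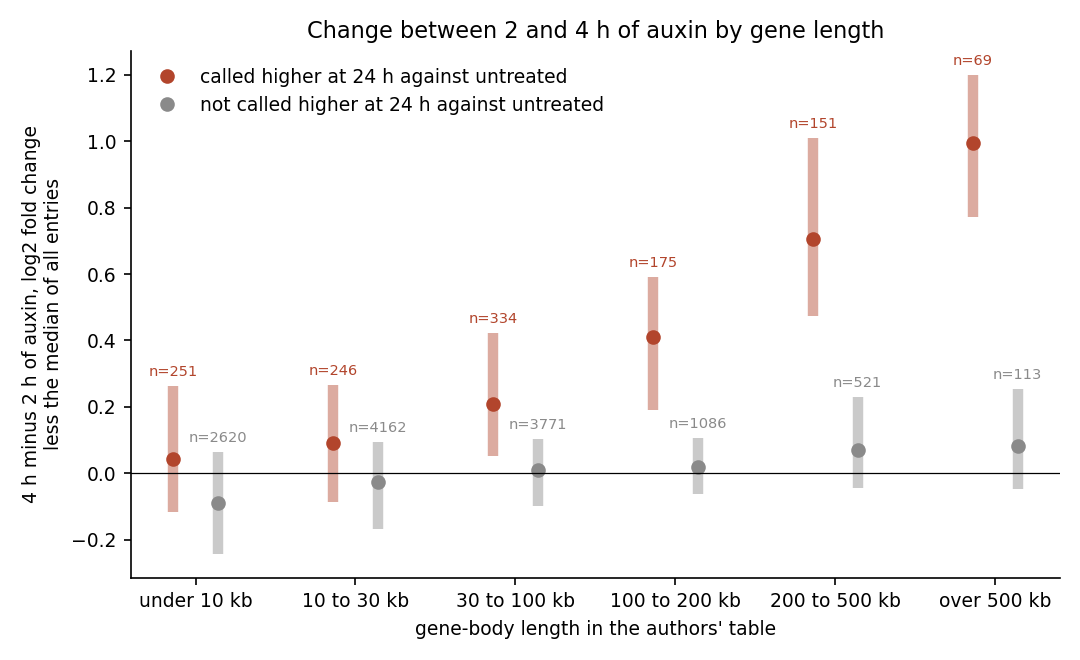
Centred difference between 4 and 2 h of auxin (y axis, log2) by gene-body length (x axis), for entries called higher at 24 h in the authors' tests (red) and all others (grey); dots are medians, bars the range from the first to the third quartile over entries, and n the number of entries. The red medians run from 0.04 under 10 kb to 0.99 over 500 kb, and the grey ones from -0.09 to 0.08.

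Long genes with a short variant offered a look within genes, chosen after values were seen. In 62 genes the longest entry was 100 kb or more and at least 1.5 times as long as the shortest, and at least 1 of the 2 was called higher at 4 h. Variants of a gene share reads where they overlap. At 4 h the median log2 fold change was 1.251 for the longest and 0.92 for the shortest entries in the authors' deposited tables. At 2 h it was 0.58 for the longest and 0.26 for the shortest. The shortest entry had the lower value in 46 of 62 genes at 4 h and in 47 at 2 h. At 2 h 24 longest but 10 shortest entries were called higher. Over all entries 4.16% were called higher at 2 h, but these genes were chosen by a call at 4 h. Of the 1995 entries called higher at 4 h, 544 were also called at 2 h. The shortest entries had fewer reads than the longest, in Cacnb2 99.3 against 414, and whether this lowered their calls was not tested. The centred difference was about equal, with medians of 0.36 for the longest and 0.40 for the shortest entries. The choice by a call at 4 h favours values above 0.

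The centred difference was larger for the shortest entry in 32 of the 62 genes. In Cacnb2 it was larger for the shorter entry. Its 384 kb entry had 3.40 at 4 h against 1.59 at 2 h in the authors' deposited tables, while its 164 kb entry had 3.00 at 4 h and 0.25 at 2 h. These are centred differences of 1.55 for the longer and 2.49 for the shorter entry. For Vav3, a guanine nucleotide exchange factor, the 345 kb entry had 2.26 and 1.13 and the 112 kb entry 1.82 and 0.08 at 4 and 2 h in the authors' deposited tables. In all 3 genes the shorter entry was lower at both times, but for Cacna1c its centred difference was also smaller, 1.29 against 2.07. The 171 kb entry of Cacna1c had 1.45 at 4 h and -0.09 at 2 h, and the 609 kb entry 3.77 and 1.44, in the authors' deposited tables.

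**Figure D3:**
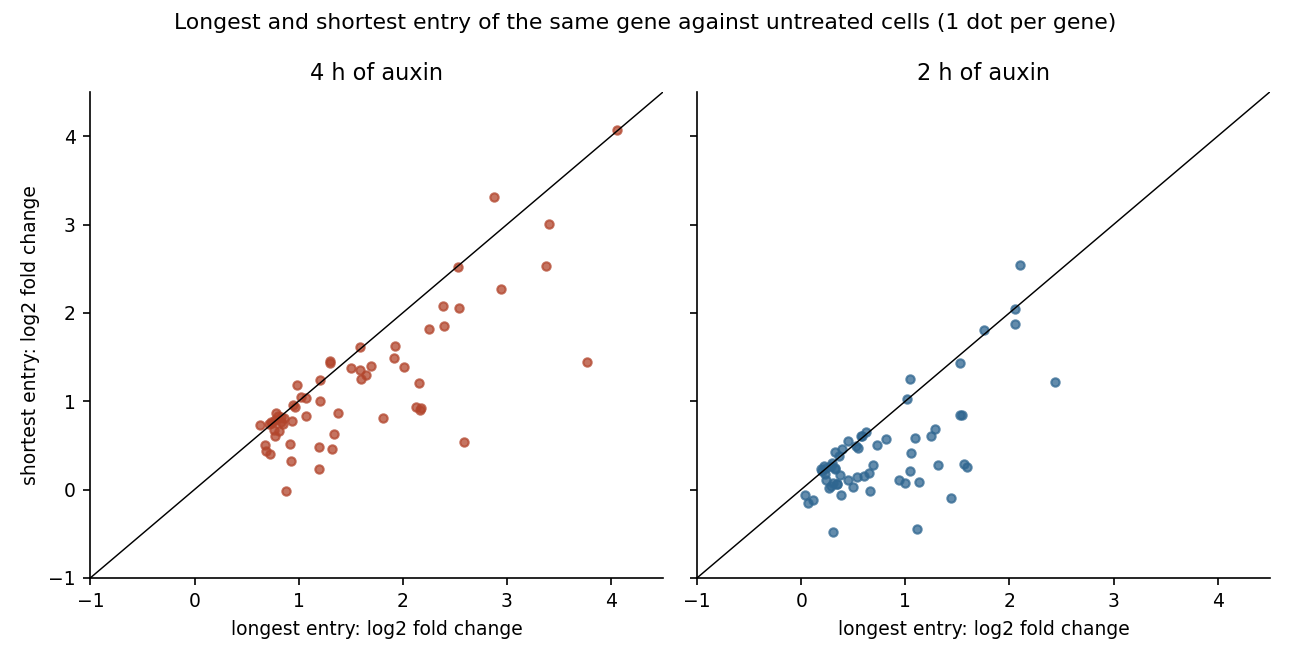
Log2 fold change against untreated cells of the longest (x axis) and the shortest entry (y axis) of 62 genes in the authors' deposited tables, at 4 h (left) and 2 h (right) of auxin; each dot is a gene and the line marks equal values. Below the line lie 46 genes at 4 h and 47 at 2 h.

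Genes over 500 kb gained more between 2 and 4 h than in the first 2 h or later. Among entries called higher at 24 h, those over 500 kb had a median log2 fold change, less the median of all entries at that time, of 0.58, 1.55, 1.51 and 1.29 after 2, 4, 8 and 24 h in the authors' deposited tables. Entries from 200 to 500 kb had 0.79, 1.53, 1.40 and 1.20 at these times. Entries under 10 kb had 0.18, 0.22, 0.39 and 0.60. The call at 24 h fixes in part how high the 24 h values are. Chosen by the call at 4 h instead, entries under 10 kb had 0.22, 0.42, 0.26 and 0.28 and those over 500 kb 0.53, 1.41, 1.30 and 0.99, so that the course of the short entries after 4 h depended on which call chose them. For the 333 entries far above the median difference, the median less that of all entries was 0.54, 1.43, 1.42 and 1.27 after 2, 4, 8 and 24 h. Without subtracting the median of all entries, it was 0.69, 1.83, 1.91 and 1.51 in the authors' deposited tables.

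**Figure D4:**
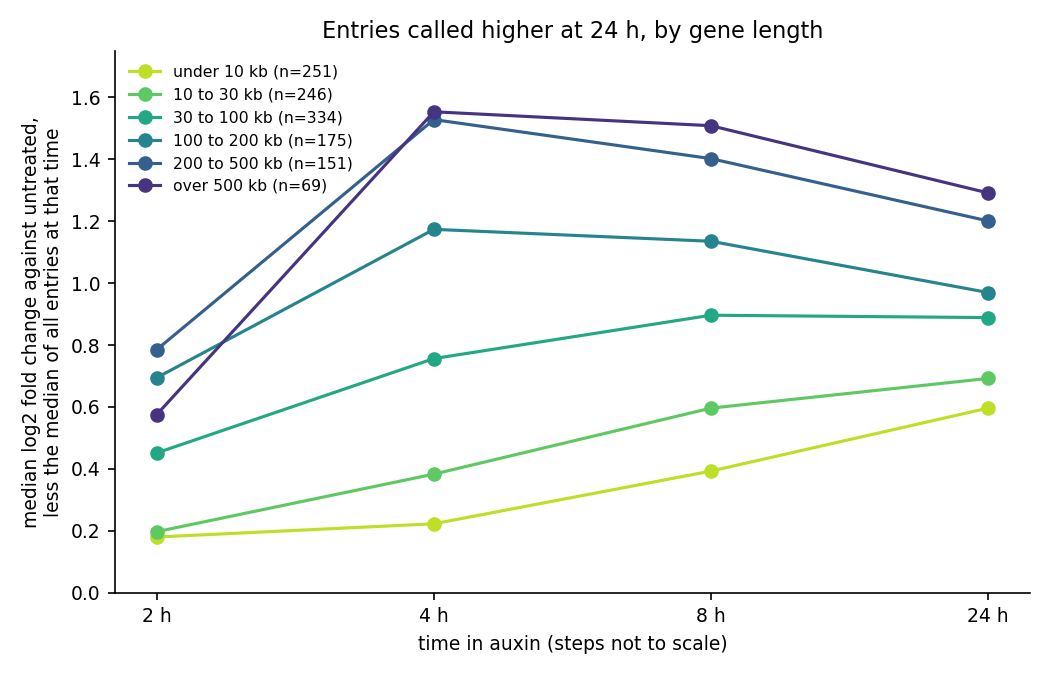
Median log2 fold change against untreated cells, less the median of all entries at that time (y axis), at 2, 4, 8 and 24 h of auxin (x axis, steps not to scale) by gene length, for entries the authors' tests called higher at 24 h. Entries over 500 kb stand at 0.58 at 2 h and 1.55 at 4 h, and those under 10 kb at 0.18 and 0.22.

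Potassium channel and neurotransmitter receptor genes were the lists, of 75, with the most members over 1.5-fold above the median difference. These members were 26.5% and 31.4% of those used, against 2.27% of all symbols. The ranking is by number, and some shorter lists had larger shares, among them neurotrophin and GDNF genes and Sox genes with 40% each. For lists 1 entry per symbol was used, and over all 12541 symbols 14.6% were called higher at 4 h and 4.12% at 2 h, and 0.136% were called lower at 4 h and 0.303% at 2 h. Of 96 potassium channel genes 49 had enough reads, with a median centred difference of 0.17, 13 over 1.5-fold above and 0 over 1.5-fold below. Of these 49, 25 were called higher at 4 h and 8 at 2 h. The voltage-gated channel genes Kcnb2 (1.34), Kcnq5 (1.31) and Kcnd2 (1.20) followed Kcnma1 by centred difference, and Kcnj4 had -0.54. Of 40 calcium and sodium channel genes 29 were used, with a median of 0.11 and 6 over 1.5-fold above. Cacna1d stood at 1.12 and Cacnb4 at 0.97 beside Cacna1c and Cacnb2.

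Of 95 neurotransmitter receptor genes 35 were used. Their median was 0.33, 11 were over 1.5-fold above and 0 below, 17 were called higher at 4 h and 6 at 2 h. The adrenergic receptor gene Adra1a led with log2 fold changes of 2.40 at 4 h against 0.64 at 2 h in the authors' deposited tables. The glutamate receptor genes Grid1 (1.15) and Grik2 (0.99) were also over 1.5-fold above by centred difference. The median length of the 35 was 144 kb. Relative to the median of their own length class the list medians were 0.20 for these receptors, 0.14 for potassium channels and 0.10 for calcium and sodium channels.

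Cell adhesion and guidance lists held members far above the bulk, with list medians between 0.02 and 0.24. Of 77 cadherin and protocadherin genes 44 were used, with a median of 0.24, 4 over 1.5-fold above, 0 below, 21 called higher at 4 h and 10 at 2 h. Beside Fat3 these were Pcdhac1 (1.27), which shares exons with the other alpha protocadherins, Cdh8 (0.98) and Cdh13 (0.85), while E-cadherin gene Cdh1, the main cadherin of embryonic stem cells, had -0.12. N-cadherin gene Cdh2 stood at 3.56 at 4 h, and already at 2.75 at 2 h, in the authors' deposited tables, both called higher. Of 80 synaptic adhesion genes 53 were used and 9 were over 1.5-fold above, among them Opcml (1.14), Cntn3 (1.15) and Lrfn5 (1.22), with a list median of 0.04. The single member over 1.5-fold below was Lrp1 at -0.59.

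Among 57 axon guidance genes used of 69, 9 were over 1.5-fold above and 0 below, with a median of 0.02. The netrin receptor gene Dcc, 1097 kb long, had a log2 fold change of 2.06 at 4 h against 0.30 at 2 h in the authors' deposited tables. Slit2 (1.01), the ephrin gene Efna5 (0.90) and Sema6d (0.89) followed by centred difference. At the other end stood short members, the plexin gene Plxnb2 (-0.52) and the Eph receptor gene Epha2 (-0.51), 25 and 28 kb long. Of 10 neurotrophin and GDNF genes used of 17, 4 were over 1.5-fold above, Ntrk3 (0.91), Ntf3 (0.84), Ntrk2 (0.69) and Gfra1 (0.65), with a list median of 0.34. Col25a1, at 1.54 the highest of 29 collagen genes, was 419 kb long, and the list median was 0.00.

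Developmental transcription factors, the classic Polycomb targets, were mostly below the read minimum. Of 39 Hox cluster genes 3 were used, with a median of 0.23, and of 6 Iroquois, 6 Distal-less and 14 Nkx genes 0. With a minimum of 10 reads 14 Hox cluster genes had a median of 0.60, with 7 over 1.5-fold above and 0 below. Lowering the minimum to 10 reads also raised the counts over all entries, from 333 to 571 above and from 47 to 109 below. How far the wider spread at few reads accounts for the 7 of 14 was not tested. Of 9 Pax genes 4 were used, and Pax3, a neural crest regulator, had 3.92 at 4 h against 2.48 at 2 h in the authors' deposited tables, with a centred difference of 1.19. Pax2 had a centred difference of 0.77, Pax6 0.37 and Pax8 0.30. Of 10 Sox genes used of 18, Sox6 (1.11), the neural genes Sox1 (0.75) and Sox21 (0.74) and Sox11 (0.71) were over 1.5-fold above. Sox6 is 568 kb long, while Sox1 has 4.04 kb, Sox21 3.80 kb and Sox11 8.45 kb.

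Several regulators called at both times had little further change. Meis2, a homeobox cofactor, had 3.53 at 4 h and 3.07 at 2 h, and Lmx1b, of limb and midbrain development, 3.60 and 3.64 in the authors' deposited tables. Their centred differences were 0.20 and -0.29. Other members of the Meis and Pbx list went further, Pknox2 with 0.82 and Meis1 with 0.69, and the 8 used had a median of 0.23. Nfix (0.68) was the other nuclear factor I gene over 1.5-fold above, and Nfic had -0.21. Of 18 forkhead genes used of 44 the 541 kb gene Foxp2 (1.01) was over 1.5-fold above, and the list median was -0.08 (0.18 without centring). The early B-cell factor gene Ebf1, 390 kb long, had 1.26. The list of sine oculis-related and Eya genes had 6 used members, all above 0, with Eya4 at 0.87.

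Signalling genes gave a mixed picture. Of 11 Fgf ligand genes used of 22, the long genes Fgf13 (1.07) and Fgf14 (0.59) and the limb and lung ligand Fgf10 (0.87) were over 1.5-fold above, and Fgf7 (-0.71) was over 1.5-fold below. Fgf4, the ligand made by embryonic stem cells, had -0.34. Among 10 Bmp ligands and antagonists used of 22, the antagonist genes Bmper (0.92) and Chrdl1 (0.66) were above, and Bmp8a (-0.50) was called higher at 2 h only. The primitive endoderm list had 13 members used of 17, with Pdgfra at 0.90, Gata6 at 0.64, Hnf4a at -0.55 and a median of 0.08.

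Short genes far above the median difference were fewer than long ones. Under 30 kb there were 45 such entries among 7279. Ccnd2, cyclin D2 of the G1 phase and 25 kb long, had 2.39 at 4 h against 1.05 at 2 h in the authors' deposited tables. Bmi1, the PRC1 subunit PCGF4 and 10 kb long, had 2.81 and 1.60 at these times in the authors' deposited tables and was the 1 gene of 33 PRC1 subunit genes over 1.5-fold above. The list median was 0.03, and Rnf2, which encodes RING1B, had 0.31, Ring1 -0.31 and Phc1 -0.34. Auxin removes the RING1B protein, so none of these RNA levels checks the depletion. The neurofilament gene Nefl (0.86) and Fam84b (0.92) were under 10 kb.

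Imprinted genes held both short and long members far above. Of 25 used of 32, 5 were over 1.5-fold above and 0 below, with a median of 0.09. Igf2, a growth factor gene of 10 kb, had log2 fold changes of 0.73, 2.00, 2.68 and 3.76 after 2, 4, 8 and 24 h in the authors' deposited tables, an increase at each step. Ndn (0.82), Sfmbt2 (0.82), Grb10 (0.80) and Airn (0.77), antisense to Igf2r, were the others. Of these Ndn has 1.65 kb, while Sfmbt2 has 225 kb and Grb10 107 kb. How strands were counted is not given in the sources used here. Germline genes moved less far but broadly: 16 of 19 were above 0, with a median of 0.23 (0.14 relative to their length class). Of these, 11 were called higher at 4 h and 2 at 2 h, among them the meiotic gene Sycp1 (0.60), Dazl (0.48) and Ddx4 (0.38).

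Some genes lowered at 2 h were nearer to the untreated level at 4 h. Of the 42 entries called lower at 2 h, 28 were not called at 4 h, and 27 of these 28 had a centred difference above 0, with a median of 0.37. Entries picked for a low 2 h value tend to lie above 0 by that choice alone. Stc1, a secreted glycoprotein of the hypoxia list and 12 kb long, had -0.30 at 4 h against -2.08 at 2 h in the authors' deposited tables, and its centred difference of 1.52 was the highest of any gene from 10 to 30 kb. Fam19a4 (0.83), Arhgef6 (0.70), the potassium channel gene Kcnn3 (0.68) and the chemokine receptor gene Ackr3 (0.57) were others. Called lower at both times were 14 entries, with a median of -0.07. Among them were the amino acid response genes Chac1, with -1.90 at 4 h and -2.59 at 2 h, Ddit3, with -0.78 and -1.25, and Trib3, with -0.99 and -1.14, in the authors' deposited tables.

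The entries far below the median difference were mostly short. Of the 47 entries over 1.5-fold below the median difference, 2 were 100 kb or longer, and the median length was 15.6 kb. At 4 h 5 were called higher and 4 lower, against 14.8% and 0.141% of all entries. At 2 h 14 were called higher and 0 lower, against 4.16% and 0.311%. Called at neither time were 29 of the 47, and 11439 of all 13499 entries. Picking entries with a high 2 h value relative to 4 h favours calls of higher at 2 h. The median log2 fold change of the 47 was 0.02, -0.36, 0.00 and -0.10 after 2, 4, 8 and 24 h in the authors' deposited tables. Without centring 6 of them remained over 1.5-fold lower at 4 h than at 2 h, namely Sbsn, an entry of Ncald, Nab2, Ndufa4l2, Cyr61 and Adap1. The others of the 47 were lower at 4 h relative to the bulk of the RNAs, by less than 1.5-fold in absolute terms.

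Nab2, a corepressor of EGR factors, stood at 0.88 at 4 h against 1.70 at 2 h in the authors' deposited tables, both called higher, and had a centred difference of -1.07. Cyr61, a matricellular growth regulator, had 0.63 at 4 h against 1.31 at 2 h in the authors' deposited tables and was called at 2 h only. Adap1, an Arf GTPase activator, had 0.31 and 0.99 at these times in the authors' deposited tables, again called at 2 h only. It was the one of these 3 with 887 untreated reads, against 233 for Cyr61 and 89.5 for Nab2.

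All 18 entries called higher at 2 h and not at 4 h had a centred difference below 0, as the choice of members favours, with a median of -0.58 and 9 of them over 1.5-fold below. They came from 17 genes. Besides Cyr61 and Adap1 these included the transcription cofactor gene Vgll4 (-0.76), the ribonuclease gene Zc3h12a (-0.72), the myosin light chain gene Myl9 (-0.60), the clock gene Per2 (-0.57), Zbtb7a (-0.56) and the focal adhesion gene Zyx (-0.47). Bcl2l1 was nearest to 0, at -0.36. Called at 4 h and not at 2 h were 1451 entries, with a median of 0.25, and here the choice of members favours values above 0. Called at both times were 544, with a median of 0.30 and 424 of them above 0.

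Immediate early genes, the first genes transcribed after a growth stimulus, stood below the bulk. Of 29 used of 37, 26 were below 0, with a median of -0.20, or 0.06 without centring. Besides Cyr61 the lowest were Fosb (-0.55), the phosphatase gene Dusp5 (-0.51) and Fos (-0.48), and Egr1 had -0.34. Of the 29, 6 were called higher at 4 h and 5 at 2 h. Targets of serum response factor and actin genes, a list added after values were seen, had 17 of 19 members below 0 and a median of -0.34, or -0.09 without centring. Nab2 and Myl9 were over 1.5-fold below, and the LIM-domain gene Fhl2 had -0.54. Relative to their length class the medians were -0.15 for immediate early genes and -0.26 for this list.

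Hippo pathway and YAP response genes, also listed after values were seen, divided in both directions. Of 26 used of 28, 15 were below 0 and 11 above, with a median of -0.03 (0.23 without centring), and 8 were called higher at 4 h and 8 at 2 h. The pathway kinase gene Lats2 had 1.10 at 4 h against 1.45 at 2 h in the authors' deposited tables, both called, and Amotl2, an angiomotin, had 0.07 and 0.53, neither called. These, with Cyr61 and Vgll4, are the 4 members over 1.5-fold below, while Igfbp3 and Fjx1 each stood at 0.45. Fgf and ERK feedback genes had 9 of 12 below 0 and a median of -0.16 (0.10 without centring), with Spry4 at -0.30 and Dusp6 at 0.08.

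Called lower at 4 h and not at 2 h were 5 entries, named here after their values were seen because they are so few. Sbsn, a gene of the epidermis, had -1.50 at 4 h against -0.53 at 2 h in the authors' deposited tables, Ndufa4l2, a hypoxia-induced gene, -1.30 and -0.62, and Nupr1, a stress-induced nuclear protein, -1.36 and -0.82. The 93.2 kb entry of Ncald had -1.18 and -0.26, and that of the calcium pump gene Atp2b2 -0.74 and -0.61, in the authors' deposited tables. Sbsn and the Ncald entry had 53.9 and 54.3 untreated reads.

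Metabolic and stress lists lay on both sides of the bulk. Medians were 0.11 for cytosolic heat shock genes, 0.10 for endoplasmic reticulum chaperone genes, 0.05 for hypoxia response genes and 0.03 for cholesterol synthesis genes, while 3 other lists had medians below 0 that turned above 0 without centring. Glycolysis genes had 17 of 18 members below 0, led by Aldoc (-0.57) and Aldoa (-0.47), with a median of -0.22 and 0.04 without centring. Amino acid response genes had 23 of 28 below 0 and a median of -0.17 (0.08 without centring), with Pck2 at -0.49 and Slc7a11 at -0.46 but Chac1 at 0.43. The p53 target list had 13 of 18 below 0 and a median of -0.22 (0.03 without centring), with Trp73 at -0.41 and Cdkn1a at -0.40. Of these 3 lists together, Nupr1 was the member over 1.5-fold below. Replication-dependent histone genes, 7 of 8 below 0, had a median of -0.32 and -0.07 without centring, on a median length of 0.614 kb.

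Pluripotency genes lay slightly below the bulk. Of 29 members 21 were below 0, with a median of -0.14 (0.11 without centring), and 0 were over 1.5-fold in either direction. Pou5f1 had log2 fold changes of 0.15 at 4 h against 0.20 at 2 h in the authors' deposited tables and a centred difference of -0.31. Sox2 had a centred difference of -0.15, Nanog -0.08 and Nr5a2 -0.42, while Lin28a stood at 0.22 and Dppa2 at 0.24. Of the 29, 4 were called higher at 4 h and 0 at 2 h.

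Protein folding genes stood slightly above. Of 26 endoplasmic reticulum chaperone genes 18 were above 0, with a median of 0.10, and the BiP gene Hspa5 had 1.00 at 4 h against 0.43 at 2 h in the authors' deposited tables. Cytosolic heat shock genes had 14 of 17 above 0 and a median of 0.11, with Hsph1 at 0.30. In both lists 0 members were called higher at 2 h, and 6 and 5 at 4 h. Over all symbols 4.12% were called higher at 2 h and 14.6% at 4 h. Such counts were not particular to these lists, since mitochondrial ribosome genes had 0 of 72 called higher at 2 h and 15 at 4 h. SR and hnRNP splicing genes had 35 of 44 above 0 and a median of 0.10, with Srsf1 at 0.30. The 68 cytoplasmic ribosomal protein genes had a median of -0.02, the 29 proliferation genes 0.03 and the 15 housekeeping genes -0.01. The PRC2 list of 12 had a median of 0.07, with Phf19 at 0.35 and Ezh2 at 0.15.

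**Figure D5:**
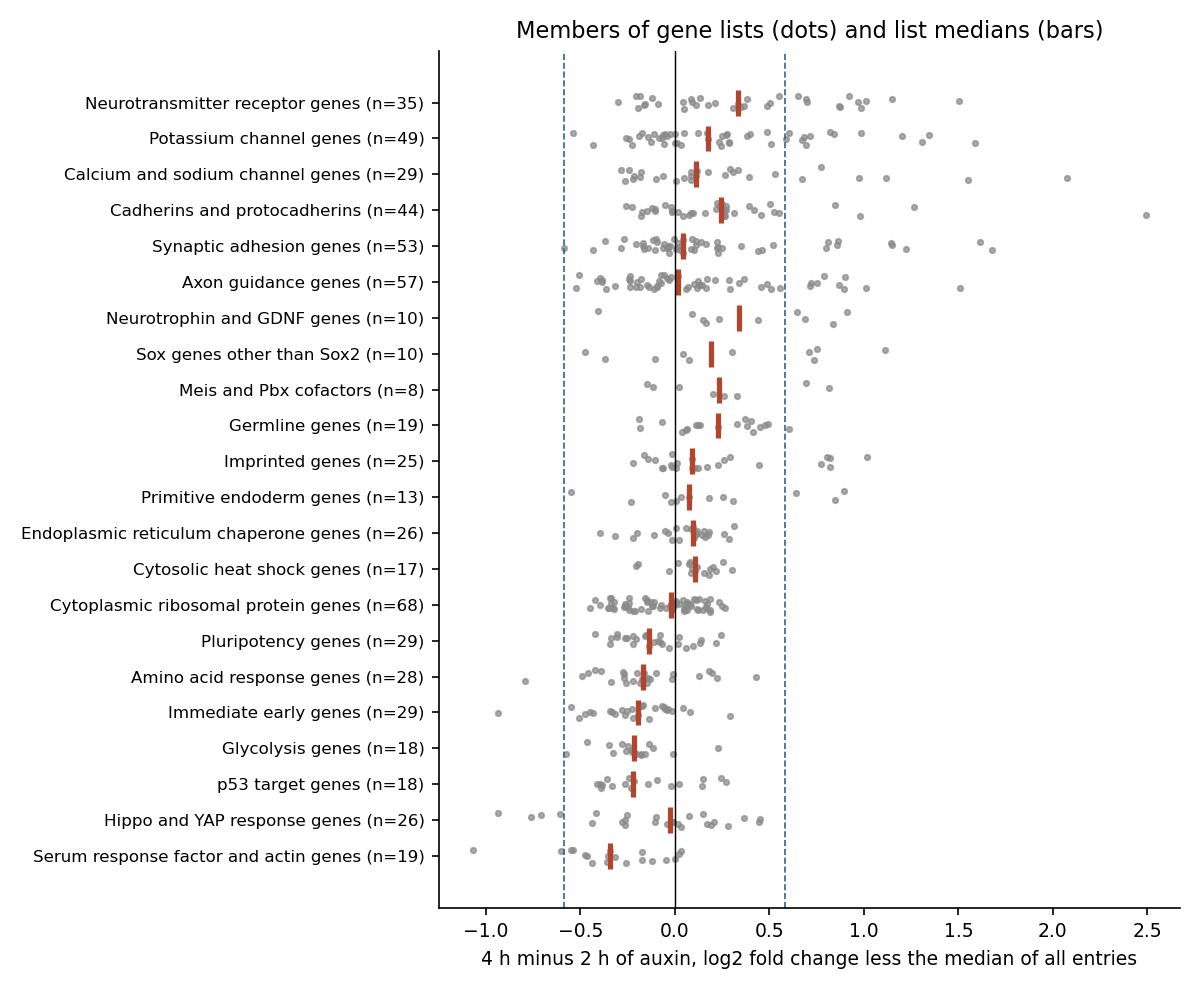
Centred difference between 4 and 2 h of auxin (x axis, log2) of the members (grey dots) of 22 gene lists, with list medians (red bars); dashed lines mark 1.5-fold, and n is the number of members with 50 or more untreated reads. The tails to the right hold channel, receptor, adhesion and guidance genes such as Fat3 at 2.49 and Cacna1c at 2.07, and the medians below 0 include immediate early genes at -0.20 and serum response factor and actin genes at -0.34.

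Markers of embryonic stem cells were abundant. Of 10 embryonic stem cell markers 9 were in the tables, all with 129 to 3585 untreated reads per kb of gene body, and their median centred difference was -0.14. The 5 primitive endoderm markers lay between 1.17 and 6.90 reads per kb. The 4 of them with 50 or more reads had a median centred difference of 0.47, and the 13 used members of the longer primitive endoderm list one of 0.08. The highest of 4 trophoblast markers had 61.4 and of 4 fibroblast markers 116 reads per kb, and 1 of each was at 0. In bulk RNA a change in the share of such cells and a change in RNA per cell cannot be told apart.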

How the data were processed

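Nuclear RNA of 21 libraries in 7 groups was sequenced after depletion of ribosomal RNA, and directional libraries of the PRC1deg cells were read as 80 bp paired ends, per the labels' protocols. The submitters' processing notes name STAR, Bowtie2, bedtools, SAMtools and DESeq2, and the builds mm10 and dm6. The authors label the deposited fold changes as spike-normalised. Not given in the sources used here are tool versions and how the spike-in entered the fold changes. Per comparison with untreated cells the authors deposited 1 table, holding a log2 fold change, a DESeq2 adjusted p-value, a gene length and a mean untreated level, the last treated here as a signal deposited by the authors. The 4 auxin tables were used, and the PRC2deg table was not. Untreated reads are that signal times length divided by 1000.

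The tables were joined on their entry names, and the difference of the 4 h and 2 h fold changes was centred on its median over entries with 50 or more untreated reads. The untreated libraries are shared by both times. No test of the difference was possible without values per library, so counts and medians are descriptions. Called entries had a deposited adjusted p under 0.05 with over 1.5-fold change either way. Of 75 lists, 73 were fixed with the design and 2 added, and the members and lists were all chosen with earlier results of these data known. Named genes, with 1 entry per symbol, were the 15 largest centred differences among genes called higher at 4 h, the 15 smallest among called genes, the 8 smallest among those called higher at 2 h, the 5 largest and 5 smallest of all, the up to 4 largest by size in each list, a fixed set of 18 genes, and the 3 largest per length class. Further list members are named as examples, chosen after their values were seen. Not every gene so named is reported here. No mouse genome was used, and no promoter sequence is shown. The counting steps were tested on simulated data. Python 3.11.15 with pandas 2.3.3, numpy 2.4.6 and matplotlib 3.10.9 was used. Alternatives were other read minimums, centrings, folds and lengths.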

Additional observations from a re-analysis of the deposited data

How the results depend on the processing

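The count of entries over 1.5-fold above the median difference, 333, became 571 with a minimum of 10 reads, 939 with no minimum, 859 with no centring, 95 at a fold of 2, 896 at the lower fold tried and 104 among entries under 100 kb. The count below, 47, became 109 with a minimum of 10 reads, 31 with 100, 134 with no minimum, 6 with no centring, 3 at a fold of 2, 821 at the lower fold and 18 among entries also called at 2 or 4 h. The median over 500 kb, 0.27, was 0.052 without entries called at 2 h or 4 h and 0.99 among entries called higher at 24 h, and that under 10 kb, -0.08, was 0.042 among the latter entries. Of the authors' calls in all 20633 entries, 2841 higher at 4 h became 1709 at an adjusted p of 0.01, 1702 at a fold of 2 and 1731 with centred fold changes. The 23 lower at 4 h became 8 at an adjusted p of 0.01 and 11 at a fold of 2. The 1044 higher at 2 h became 562 with 50 or more untreated reads, and the 48 lower became 18 at an adjusted p of 0.01 and 22 at a fold of 2. The read minimums, length limit, adjusted p and folds change which entries can pass, no centring adds 0.25 to every difference, and centring the fold changes subtracts their median, so that these shifts follow by construction. The cause of the shifts among entries chosen by their calls was not tested.

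Of 59 lists with 5 or more members, 59 kept their medians within the allowed spread when centred on entries called at neither time or weighted by reads. Centring within length class moved 3, a minimum of 10 reads 3 and a minimum of 100 reads 6. No centring adds 0.25 to each and turned 9 medians above 0: pluripotency 0.11, amino acid response 0.083, immediate early 0.056, Fgf and ERK feedback 0.097, p53 target 0.029, Notch 0.13, retinoic acid 0.15, glycolysis 0.037 and interferon and NF-kB genes 0.086.

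Leaving out each replicate and the edgeR fit were not run, since no values per library were at hand. No paired analysis was possible because the tables used hold 1 value per comparison and none per replicate. Depth limits entries with few reads, which fill both tails.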
